A study of Mus musculus with 18 samples.

Results

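The genes described here are 7 matrix metalloproteinases (Mmp2, Mmp3, Mmp9, Mmp10, Mmp11, Mmp13 and Mmp14) and 3 tissue inhibitors of metalloproteinases (Timp1, Timp2 and Timp3). They were chosen by name, and every Affymetrix probe set annotated to 1 of them was taken: 21 probe sets of 22690 on the array, or 10 genes of 12394 named ones. Mmp2, Mmp9 and Mmp14 had 2 probe sets each, Timp2 had 6, Timp3 had 4, and the others had 1. Transcripts were measured in mouse embryonic fibroblasts (MEFs) immortalised with SV40 that lacked both copies of Tdg (Tdg-/-, 3 arrays) or kept 1 (Tdg+/-, 3 arrays). The enzyme missing from the knockout, thymine DNA glycosylase, starts base excision repair at mismatched thymine and also excises oxidised forms of methylcytosine. No wild-type MEFs were among these groups, so the cells compared with the knockout are heterozygous. Each genotype is represented by 1 clone, clone 9 for Tdg-/- and clone 4 for Tdg+/-, so genotype and clone cannot be told apart. Whether a genotype's arrays represent separate cultures is not stated, and the spread behind the p-values could be technical. The embryonic stem cell and neuronal precursor samples of the series were not used here.

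Matrix metalloproteinases are zinc-dependent enzymes that cut collagens, laminins, proteoglycans and other proteins outside the cell. They are made as inactive proenzymes and are activated by removal of the propeptide. TIMPs are small proteins that bind the active site and block it, and Timp2 also takes part in activation: a complex of Mmp14 and Timp2 at the cell surface presents pro-Mmp2 for cleavage. Fibroblasts are a main source of Mmp2, Mmp14 and the TIMPs, and they make Mmp3, Mmp10 and Mmp13 when stimulated by cytokines or growth factors. An array reports transcript level only, and says nothing of how much enzyme is secreted or active.

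The values are log2 expression per probe set, with array medians between 7.38 and 7.42. The label of the knockout was checked first: the 3 probe sets that carry the name Tdg, which also match Tdg pseudogenes, were lower in Tdg-/- MEFs, with log2 means of 7.68, 6.34 and 6.92 in Tdg-/- MEFs and 9.47, 8.99 and 9.18 in Tdg+/- MEFs and adjusted p-values from 0.000726 to 0.00543. Tdg+/- replicate 1 stood apart from the other 5 arrays: its interquartile range was 2.17 log2 units against 2.48 to 2.72 on the others, and it correlated with them at 0.936 to 0.962, whereas the others correlated with each other at 0.982 to 0.998. It gave the highest or lowest value of the 6 arrays on 11 of the 21 probe sets. Values without it are given beside the results whose call it changes. The identity of the cells was read from marker genes. All 9 measured fibroblast markers lay, in at least 1 genotype, above the 95th percentile of 33 olfactory receptor probe sets (7.24 in Tdg-/- and 7.27 in Tdg+/- MEFs, log2), which stands here for the reading of genes that fibroblasts do not use. Of 10 macrophage and leukocyte markers 3 did (Csf1r, Lyz2 and Cd14), and Ptprc, Adgre1, Itgam, Cd68 and Tyrobp did not. The percentile was also passed by 1 of 7 endothelial markers (Kdr), 1 of 6 epithelial (Krt8), 2 of 7 cartilage and bone (Col2a1 and Sp7) and 1 of 5 muscle markers (Des). Among these markers of other cell types, Cd14 lay above it in Tdg-/- MEFs only, and Lyz2 and Sp7 in Tdg+/- MEFs only. Levels of different probe sets cannot be strictly compared, so this percentile is only a rough guide to expression. Among the markers of other cell types above it, Col2a1 read higher in Tdg-/- MEFs, at 9.91 against 7.94 (adjusted p = 0.00207, limma over all probe sets). Cd14 also read higher, at 7.80 in Tdg-/- and 7.17 in Tdg+/- MEFs (adjusted p = 0.0194). Kdr read lower, at 8.37 in Tdg-/- and 8.95 in Tdg+/- MEFs (adjusted p = 0.0401). The mean log2 level over the fibroblast markers was 10.74 to 10.86 on the Tdg-/- arrays and 11.15 to 11.31 on the Tdg+/- arrays. Over the leukocyte markers it was 6.32 to 6.36 on the Tdg-/- arrays and 6.30 to 6.60 on the Tdg+/- arrays. In bulk samples such as these, fewer cells of a type and less RNA per cell cannot be told apart.

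Of the 21 probe sets, 3 passed an adjusted p of 0.05, all higher in Tdg-/- MEFs, and 18 did not. These 3 belong to Mmp2 and Mmp3, the second at a reading too low to establish expression. Over the whole array 3.02% of probe sets passed, 1.96% higher and 1.07% lower in Tdg-/- MEFs. The median log2 difference was 0.02 over the 21 probe sets and -0.02 over all probe sets. By this test, limma over all probe sets, none of the 7 metalloproteinases and none of the 3 inhibitors fell; at an unadjusted p of 0.05, 7 of the 21 probe sets passed, beside 20.2% of all probe sets, and the 4 lower ones were those of Timp3. On 8 of the 21 probe sets the genotypes did not overlap, 4 with every Tdg-/- array higher and 4 with every Tdg-/- array lower, beside 37.2% of all probe sets (20.6% higher and 16.7% lower). When Tdg+/- replicate 1 was left out, 7 of the 21 probe sets passed, the same 3 higher and the 4 of Timp3 lower, beside 17.9% of all probe sets.

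**Figure D1:**
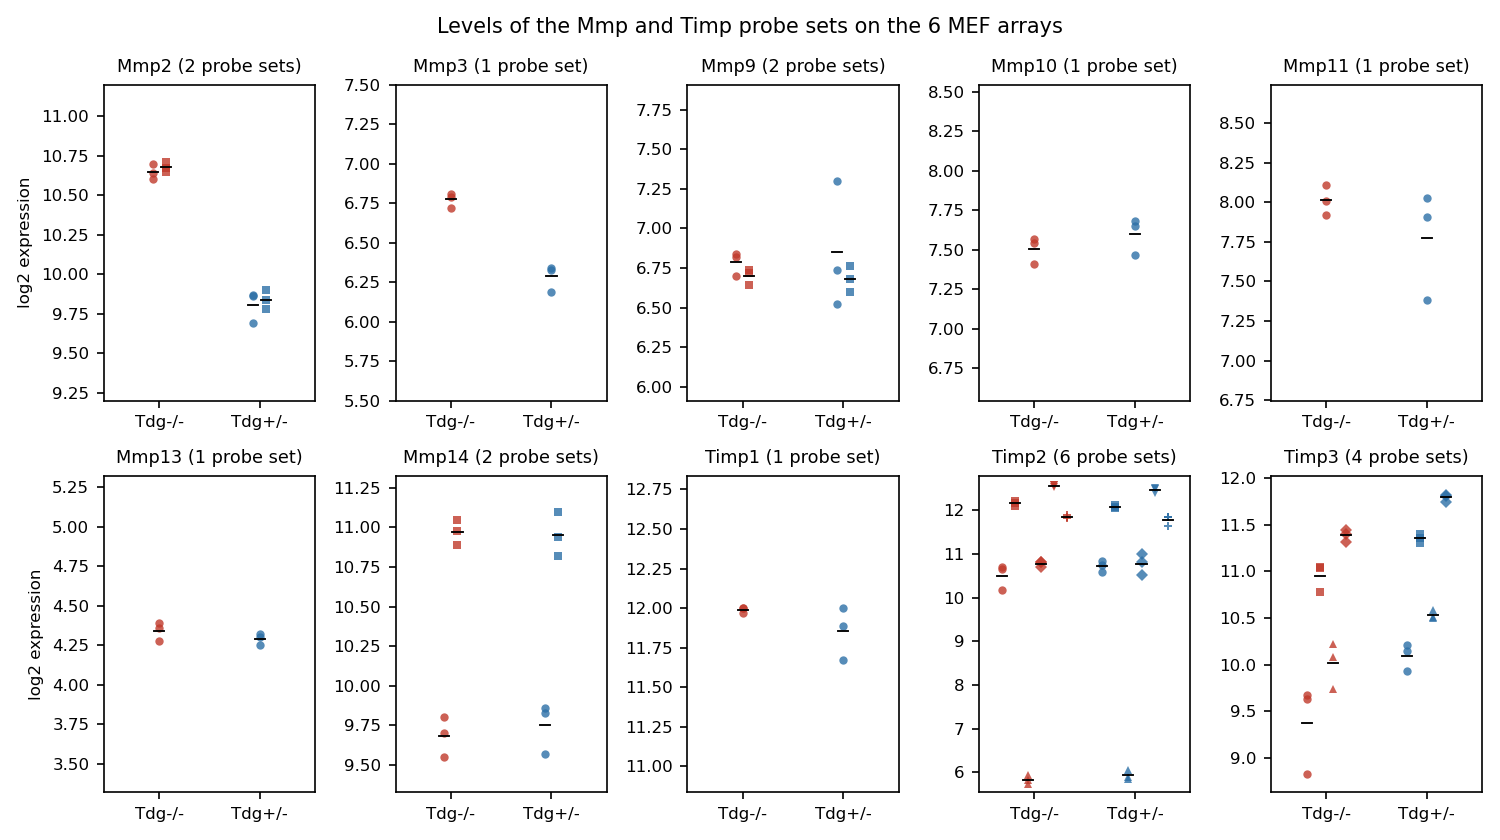
Log2 expression of each probe set of the 10 genes, 1 panel per gene, with Tdg-/- MEFs left and Tdg+/- MEFs right; points are arrays (3 per genotype), symbols tell probe sets apart, and black bars are means. Mmp2 and Mmp3 lie higher in Tdg-/- MEFs and Timp3 lower, with no overlap of arrays, while the groups overlap for Mmp9, Mmp10, Mmp11, Mmp13, Mmp14 and Timp1. Axes differ between panels, and levels of different probe sets cannot be strictly compared.

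Mmp2, or gelatinase A, degrades denatured collagen and type IV collagen of basement membranes. It rose 1.79-fold in Tdg-/- MEFs by both of its probe sets. Probe set 1439364_a_at read 10.67, 10.71 and 10.65 in Tdg-/- MEFs, against 9.84, 9.78 and 9.90 in Tdg+/- MEFs. Probe set 1416136_at read 10.70, 10.60 and 10.64 in Tdg-/- MEFs, against 9.69, 9.87 and 9.86 in Tdg+/- MEFs. Every Tdg-/- array lay above every Tdg+/- array, and the difference of the means was larger than the spread within either genotype (SD 0.03 to 0.10, n = 3). The log2 difference was 0.84 for 1439364_a_at (95% interval 0.64 to 1.03; adjusted p = 0.00528) and 0.84 for 1416136_at (0.62 to 1.06; adjusted p = 0.00747), by limma over all probe sets. Without Tdg+/- replicate 1 the differences were 0.84 and 0.78, with adjusted p-values of 3.2e-05 and 4.22e-05. With any 1 of the Tdg-/- arrays left out neither probe set passed (adjusted p from 0.0518 to 0.0704), and without Tdg+/- replicate 2 only 1439364_a_at did (0.0469 against 0.0515).

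Mmp9, or gelatinase B, cuts the same kinds of substrate and is best known from neutrophils and macrophages. It showed no such difference. Probe set 1448291_at read 6.72, 6.64 and 6.74 in Tdg-/- MEFs, against 6.76, 6.68 and 6.60 in Tdg+/- MEFs, so the groups overlapped. Its log2 difference was 0.02 (95% interval -0.19 to 0.23; adjusted p = 0.886). Probe set 1416298_at read 6.70, 6.84 and 6.82 in Tdg-/- MEFs and 7.30, 6.74 and 6.52 in Tdg+/- MEFs, with the highest value on Tdg+/- replicate 1 and an adjusted p of 0.833. Both probe sets lay under the olfactory receptor percentile in both genotypes, so expression of Mmp9 was not established in either.

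Mmp3 (stromelysin 1), Mmp10 (stromelysin 2) and Mmp13 (collagenase 3) lie together in a cluster of 10 Mmp genes on chromosome 9. Stromelysins cut proteoglycans, laminin and fibronectin and can activate other pro-MMPs, and Mmp13 is the main interstitial collagenase of rodents. A reference set of promoter windows holds the region around the start of these 3 genes, 250 bases before it to 50 after it. The windows (build GRCm38.p6, plus strand) lie at chr9:7445572-7445871 for Mmp3, chr9:7502092-7502391 for Mmp10 and chr9:7272264-7272563 for Mmp13. They are shown because these 3 windows share motifs that were not found in the windows of the 5 other members in the set. Capitals mark TGANTCA, the letters of an AP-1 element, and TATAAA, searched on both strands; the 2 motifs did not overlap in any of the 3.
Mmp3: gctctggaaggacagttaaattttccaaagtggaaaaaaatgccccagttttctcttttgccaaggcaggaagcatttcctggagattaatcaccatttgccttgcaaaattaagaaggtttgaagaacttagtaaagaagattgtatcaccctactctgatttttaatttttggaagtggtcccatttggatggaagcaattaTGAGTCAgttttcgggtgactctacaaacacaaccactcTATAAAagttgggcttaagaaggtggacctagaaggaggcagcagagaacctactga
Mmp10: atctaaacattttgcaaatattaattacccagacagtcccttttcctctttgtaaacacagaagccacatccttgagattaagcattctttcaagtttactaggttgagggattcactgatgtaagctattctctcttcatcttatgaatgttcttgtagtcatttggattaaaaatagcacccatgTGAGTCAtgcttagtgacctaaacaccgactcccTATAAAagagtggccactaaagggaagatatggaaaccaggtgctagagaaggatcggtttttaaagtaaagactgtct
Mmp13: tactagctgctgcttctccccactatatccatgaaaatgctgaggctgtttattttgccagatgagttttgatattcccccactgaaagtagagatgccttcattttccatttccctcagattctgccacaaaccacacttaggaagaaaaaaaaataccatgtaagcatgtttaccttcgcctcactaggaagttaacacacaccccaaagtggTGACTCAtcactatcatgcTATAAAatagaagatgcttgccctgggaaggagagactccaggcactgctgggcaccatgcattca
Each window holds TGANTCA 1 time and TATAAA 1 time. TGANTCA begins 46 bases before the listed start in Mmp3, 63 in Mmp10 and 35 in Mmp13, and reads TGAGTCA in the stromelysin genes and TGACTCA in Mmp13. TATAAA begins 7 bases before the listed start in Mmp3, 29 in Mmp10 and 16 in Mmp13. The listed starts were not checked, so these distances cannot be strictly compared between genes. Of 32851 windows of this length 7.81% hold TGANTCA, 13.6% hold TATAAA and 1.54% hold both. The set held windows for 8 of the 10 genes, and none for Mmp2 and Mmp9. The windows of Mmp11, Mmp14, Timp1, Timp2 and Timp3 hold neither motif in these exact letters. Variant AP-1 elements were not searched, and the Timp1 window holds the similar letters TGAGTAA. The search therefore does not show that those windows lack AP-1 elements. CpG dinucleotides, where methylation occurs, number 1 in the Mmp3 window, 2 in that of Mmp10 and 1 in that of Mmp13, against a median of 7 over all windows. No methylation was measured in these samples.

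The reading of the Mmp3 probe set was higher in Tdg-/- MEFs, at a level where expression was not established in either genotype. It read 6.72, 6.79 and 6.81 in Tdg-/- MEFs, against 6.19, 6.33 and 6.34 in Tdg+/- MEFs, without overlap. The log2 difference was 0.49 (95% interval 0.28 to 0.69), and the adjusted p of 0.0417 was close to the threshold. Both means, 6.77 in Tdg-/- and 6.29 in Tdg+/- MEFs, lay under the olfactory receptor percentile. The call held without Tdg+/- replicate 1 (0.44; adjusted p = 0.00221) and was lost without any other single array, where the adjusted p was 0.0649 without Tdg+/- replicate 3 and between 0.154 and 0.245 in the other cases. It was also lost with a trended, robust variance prior (0.0584).

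Mmp10 read 7.54, 7.57 and 7.41 in Tdg-/- MEFs, against 7.68, 7.65 and 7.47 in Tdg+/- MEFs. The groups overlapped, and the log2 difference was -0.09 (95% interval -0.33 to 0.14; adjusted p = 0.524). Mmp13 read 4.28, 4.36 and 4.39 in Tdg-/- MEFs and 4.32, 4.30 and 4.25 in Tdg+/- MEFs, far under the olfactory receptor percentile, with an adjusted p of 0.64. Of the 10 genes of the cluster 9 were measured, and Mmp3 was the one that passed. The other 8 had log2 differences from -0.45 for Mmp8, a neutrophil collagenase, to 0.06 for Mmp13, with adjusted p-values from 0.159 to 0.64. The genes directly beside Mmp3, Mmp1b and Mmp1a, had log2 differences of -0.13 and -0.18, with adjusted p-values of 0.399 each. The difference between Mmp3 and its neighbours was not itself tested. Of these 9 genes only Mmp10 and Mmp7 lay above the olfactory receptor percentile.

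**Figure D2:**
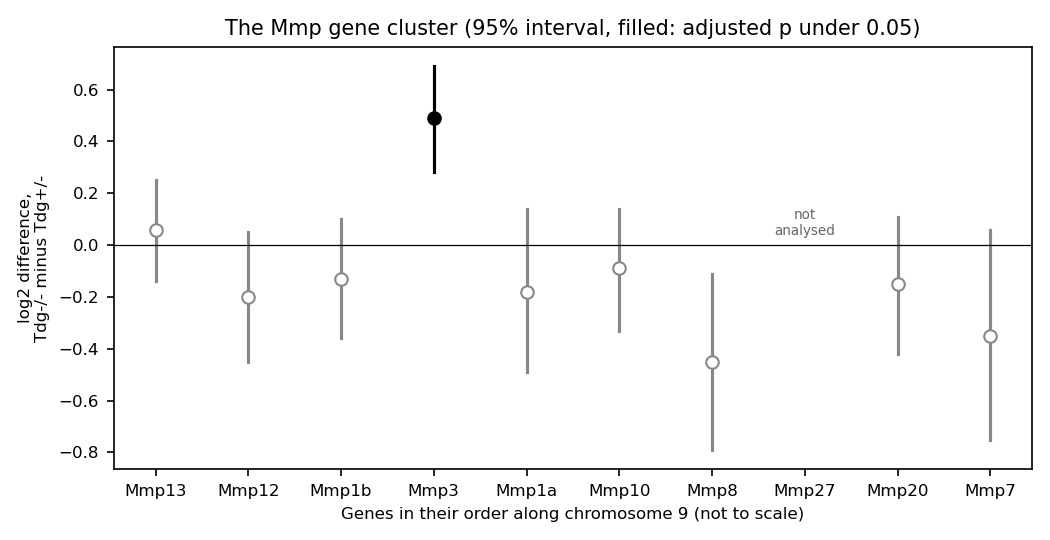
Log2 difference (Tdg-/- minus Tdg+/- MEFs, y axis) with its 95% interval for the genes of the chromosome 9 Mmp cluster, in chromosomal order (x axis, not to scale). Mmp3 at 0.49 is the single filled point, and the other 8 measured genes lie between -0.45 and 0.06.

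Mmp11, or stromelysin 3, is activated inside the cell by furin, as Mmp14 is. It read 7.92, 8.01 and 8.11 in Tdg-/- MEFs, against 7.38, 7.91 and 8.03 in Tdg+/- MEFs. The low value was that of Tdg+/- replicate 1, and the other Tdg+/- arrays overlapped with the Tdg-/- ones. The log2 difference was 0.24 (95% interval -0.19 to 0.67; adjusted p = 0.398), and 0.04 without that array.

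Mmp14, or MT1-MMP, is anchored in the plasma membrane, cuts fibrillar collagen around the cell and activates pro-Mmp2. Probe set 1448383_at read 10.89, 11.05 and 10.98 in Tdg-/- MEFs, against 10.94, 10.82 and 11.10 in Tdg+/- MEFs. Probe set 1416572_at read 9.80, 9.70 and 9.55 in Tdg-/- MEFs, against 9.57, 9.83 and 9.86 in Tdg+/- MEFs. The groups overlapped for both. The log2 differences were 0.02 (95% interval -0.23 to 0.27; adjusted p = 0.906) and -0.07 (95% interval -0.35 to 0.21; adjusted p = 0.705). Neither interval reaches the 0.84 measured for Mmp2, and the difference between Mmp2 and Mmp14 was not itself tested.

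Timp3 is the inhibitor that binds to the extracellular matrix and also blocks several ADAM proteases. Its 4 probe sets all read lower in Tdg-/- MEFs, and none passed the test. Probe set 1449335_at read 11.31, 11.40 and 11.44 in Tdg-/- MEFs, against 11.74, 11.82 and 11.81 in Tdg+/- MEFs. Probe set 1419089_at read 11.03, 11.04 and 10.78 in Tdg-/- MEFs, against 11.36, 11.40 and 11.30 in Tdg+/- MEFs. For all 4 probe sets every Tdg-/- array lay below every Tdg+/- array; the 4 report on 1 gene and are not independent.

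Probe set 1449334_at read 10.22, 10.08 and 9.74 in Tdg-/- MEFs, against 10.51, 10.50 and 10.58 in Tdg+/- MEFs. The fourth probe set, 1419088_at, read 9.67, 9.63 and 8.83 in Tdg-/- MEFs, against 9.93, 10.15 and 10.21 in Tdg+/- MEFs. Tdg-/- replicate 3 was the lowest array on 3 of the 4 probe sets, and without it the difference of 1419088_at was -0.45 in place of -0.72. The log2 differences ran from -0.72 to -0.40, which is 1.32-fold to 1.65-fold, with adjusted p-values from 0.0611 for 1449335_at to 0.171. Their mean as 1 gene gave -0.51 (adjusted p = 0.0695). Without Tdg+/- replicate 1 all 4 passed, at adjusted p-values from 0.00303 to 0.0201, with differences from -0.81 to -0.40. Without any other single array none of the 4 did. Probe set 1449335_at alone also passed with quantile normalization (0.0194), with a loess correction of Tdg+/- replicate 1 (0.0305), with a trended, robust prior (0.0182) and with the dimmer probe sets left out (0.0381).

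The start region of Timp3 (chr10:86300162-86300461, build GRCm38.p6, plus strand) is shown with its CpG dinucleotides in capitals, because it is of another kind than those of the chromosome 9 genes.
Timp3: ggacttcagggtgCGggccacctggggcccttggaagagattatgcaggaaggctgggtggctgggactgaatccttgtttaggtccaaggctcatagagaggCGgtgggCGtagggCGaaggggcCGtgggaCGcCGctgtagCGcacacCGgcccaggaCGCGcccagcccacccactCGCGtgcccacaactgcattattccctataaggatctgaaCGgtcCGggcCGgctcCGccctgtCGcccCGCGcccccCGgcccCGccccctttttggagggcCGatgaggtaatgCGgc
It holds 24 CpG dinucleotides, and 80% of all windows of this length hold fewer. The window of Timp2 holds 25 CpG dinucleotides, that of Mmp11 holds 19, that of Mmp14 holds 10 and that of Timp1 holds 8.

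Timp1, a secreted inhibitor of most MMPs, read 12.00, 12.00 and 11.97 in Tdg-/- MEFs, against 11.67, 11.89 and 12.00 in Tdg+/- MEFs. The groups overlapped at the highest Tdg+/- array. The log2 difference was 0.14 (95% interval -0.12 to 0.40; adjusted p = 0.408), and 0.05 without Tdg+/- replicate 1. Timp2 had 6 probe sets, with log2 differences from -0.23 to 0.10 and adjusted p-values from 0.386 to 0.998. Probe set 1454677_at read 12.58, 12.54 and 12.59 in Tdg-/- MEFs, against 12.39, 12.52 and 12.49 in Tdg+/- MEFs. It was the 1 Timp2 probe set whose groups did not overlap, and its difference of 0.10 (95% interval -0.09 to 0.30) had an adjusted p of 0.42. Probe set 1420924_at read 10.65, 10.70 and 10.17 in Tdg-/- MEFs, against 10.59, 10.76 and 10.85 in Tdg+/- MEFs, with the low value on Tdg-/- replicate 3. Probe set 1437081_at, at 5.83 in Tdg-/- and 5.93 in Tdg+/- MEFs, was the only Timp2 probe set under the olfactory receptor percentile.

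**Figure D3:**
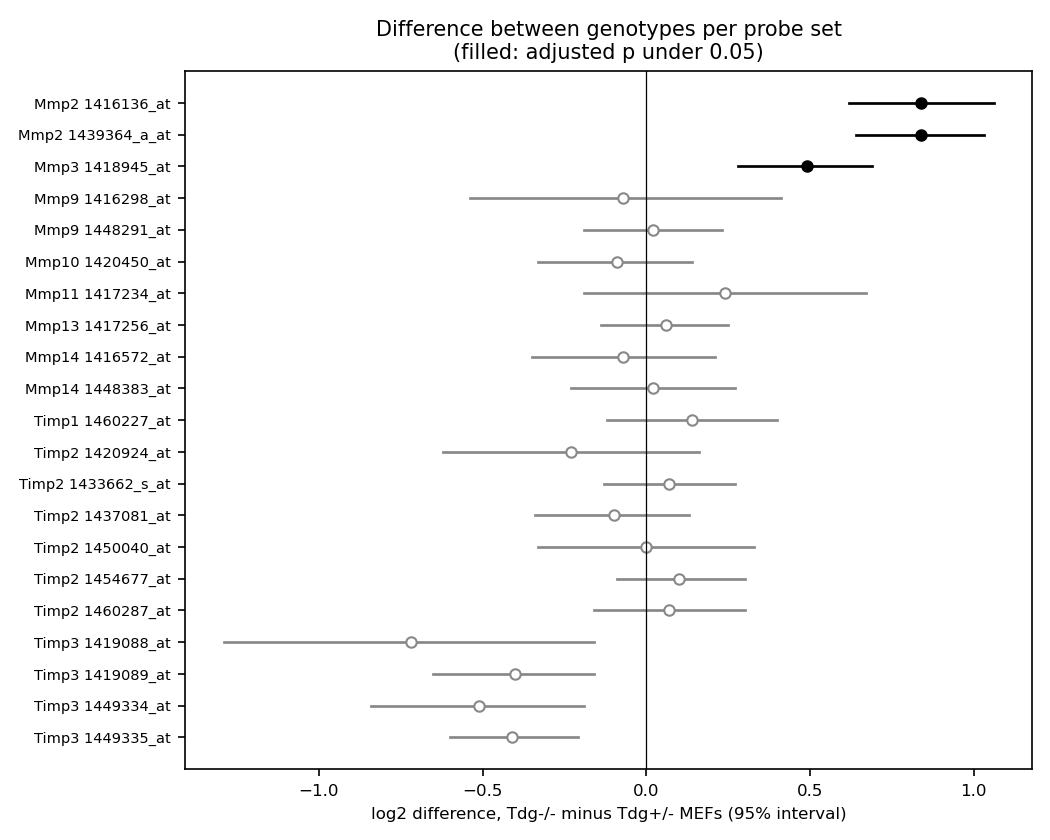
Log2 difference between genotypes (x axis, Tdg-/- minus Tdg+/- MEFs) with its 95% interval for all 21 probe sets (y axis, gene and probe set). Filled points passed an adjusted p of 0.05: Mmp2 at 0.84 on both probe sets and Mmp3 at 0.49; the 4 Timp3 intervals lie below 0, and the other 14 include 0.

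**Figure D4:**
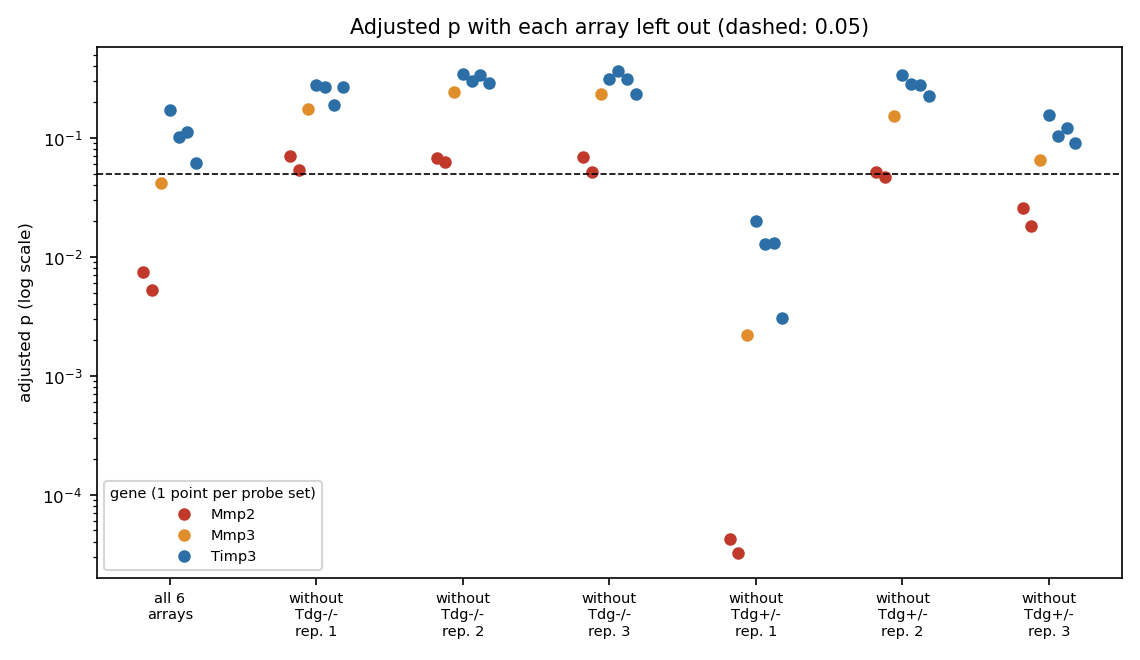
Adjusted p (y axis, log scale) of the Mmp2, Mmp3 and Timp3 probe sets with all 6 arrays and with each array left out (x axis); the dashed line is 0.05. All 7 points lie under the line without Tdg+/- replicate 1 and over it without any 1 of the Tdg-/- arrays.

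Among the other members of the family, 12 genes were measured by 17 probe sets, and none passed. Their log2 differences ran from -0.45 to -0.04, all below 0, with a median of -0.18 and adjusted p-values from 0.159 to 0.785. Without Tdg+/- replicate 1 the differences ran from -0.31 to 0.02, so not all stayed below 0. Of the 17 probe sets 13 lay under the olfactory receptor percentile in both genotypes, and 14 had their highest value on Tdg+/- replicate 1. Mmp16, a membrane-anchored metalloproteinase, read 7.71, 7.56 and 7.54 in Tdg-/- MEFs, against 8.11, 7.78 and 7.89 in Tdg+/- MEFs on its brighter probe set (adjusted p = 0.194). Mmp7 (matrilysin) read 7.69, 7.79 and 7.72 in Tdg-/- MEFs, against 8.46, 7.96 and 7.82 in Tdg+/- MEFs (adjusted p = 0.293). Mmp8 passed without Tdg+/- replicate 1 and was the only 1 of the 17 to do so, at an adjusted p of 0.0222, beside 17.9% of all probe sets. Its means with all arrays, 6.28 in Tdg-/- and 6.73 in Tdg+/- MEFs, lay under the olfactory receptor percentile.

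The genes around the metalloproteinases were followed with 7 further lists. In these lists a gene was represented by its probe set of highest mean level. Over all 12394 genes so represented, 3.34% passed, 2.15% higher and 1.19% lower in Tdg-/- MEFs, and the median log2 difference was -0.02. Among 12 genes of the plasminogen system and of pro-MMP activation none passed (median -0.18). Furin, the protease that activates Mmp14 and Mmp11 inside the cell, read 8.27, 8.36 and 8.44 in Tdg-/- MEFs, against 7.79, 7.97 and 7.93 in Tdg+/- MEFs, with a log2 difference of 0.46 (95% interval 0.23 to 0.68; adjusted p = 0.0636), and 0.40 (adjusted p = 0.00551) without Tdg+/- replicate 1. Among 22 transcription factors known to act on Mmp promoters, AP-1 and Ets families included, none passed (median -0.03). The AP-1 subunit gene Fosl1 was at -0.50 (adjusted p = 0.143), and at -0.65 (adjusted p = 0.000325) without Tdg+/- replicate 1. Jun, another AP-1 subunit gene, was at 0.07 (adjusted p = 0.814). Without Tdg+/- replicate 1, where 18.9% of all genes passed, 1 of the plasminogen genes rose and 2 fell, and 1 of the transcription factors rose and 6 fell. The medians were then -0.08 and -0.09 for these lists, beside -0.03 over all genes.

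Of 15 cell-surface and pericellular partners of MMPs, Cd151 and Lrp1 rose, none fell and 13 did not pass (median -0.09). Cd151 encodes a tetraspanin that holds laminin-binding integrins in membrane complexes. It read 11.43, 11.40 and 11.27 in Tdg-/- MEFs, against 9.74, 9.71 and 9.79 in Tdg+/- MEFs, a 3.08-fold rise (adjusted p = 0.00072) that passed with any single array left out. Of its 6 probe sets 4 rose and passed, and the other 2 were in the opposite direction without passing. Lrp1, an endocytic receptor that takes up MMPs and TIMPs from outside the cell, read 9.87, 10.16 and 10.02 in Tdg-/- MEFs, against 9.08, 9.20 and 9.25 in Tdg+/- MEFs, a 1.79-fold rise (adjusted p = 0.014). Reck, a membrane-bound MMP inhibitor, was at -0.22 (adjusted p = 0.345), and at -0.35 (adjusted p = 0.00916) without Tdg+/- replicate 1. Bsg, the MMP inducer basigin, was at -0.06 (adjusted p = 0.612).

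Of 17 Adam and Adamts genes, Adamts1, which cuts aggrecan and versican, fell 1.74-fold (adjusted p = 0.0169) and 16 did not pass (median -0.11). Of 14 other matrix-degrading enzymes, the secreted serine protease gene Htra1 rose 2.09-fold (adjusted p = 0.0159), the reading of Fap fell by 1.32 on the log2 scale (adjusted p = 0.0105) and 12 did not pass (median -0.17). Fap encodes a membrane serine protease of activated fibroblasts, and its means of 5.59 in Tdg-/- and 6.90 in Tdg+/- MEFs both lay under the olfactory receptor percentile, so its expression was not established. Among 23 cytokine, growth factor and receptor genes, Tgfb1 rose 1.59-fold (adjusted p = 0.0167), Pdgfra fell by 1.23 on the log2 scale (adjusted p = 0.00444) and 21 did not pass (median -0.21). Pdgfra passed with any single array left out; its mean was 6.86 in Tdg-/- MEFs, under the olfactory receptor percentile, and 8.09 in Tdg+/- MEFs, above it. Lrp1, Adamts1, Htra1, Fap and Tgfb1 passed without Tdg+/- replicate 1 or 3 and did not without Tdg+/- replicate 2 or any 1 of the Tdg-/- arrays, with adjusted p-values up to 0.119. Tgfb1 did not pass with quantile normalization (0.0553). Without Tdg+/- replicate 1 the calls were 5 higher and 3 lower among the surface partners, 2 and 4 among Adam and Adamts genes, 4 and 4 among the other enzymes, and 3 and 6 among cytokine, growth factor and receptor genes. The medians of these lists were then -0.08, -0.08, -0.11 and -0.16, in the same order.

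Of 22 genes for matrix proteins on which these enzymes act, 3 rose, 5 fell and 14 did not pass, with a median of -0.06. Col2a1, the collagen of cartilage, rose 3.9-fold: it read 10.01, 9.78 and 9.94 in Tdg-/- MEFs, against 8.02, 8.14 and 7.66 in Tdg+/- MEFs (adjusted p = 0.00207). The mean log2 level over the 7 cartilage and bone markers, Col2a1 included, was 6.75 to 6.80 on the Tdg-/- arrays and 6.46 to 6.94 on the Tdg+/- arrays. The proteoglycan gene Vcan (versican) rose 2.44-fold (adjusted p = 0.0207) and Tnc (tenascin C) 1.69-fold (adjusted p = 0.0196). The fibrillar collagen gene Col3a1 fell 2.21-fold (adjusted p = 0.00706), and the other 4 that fell were Col1a2, Dcn, Lama4 and Col5a1, by 1.44-fold to 1.6-fold. The mean of Lama4 was 7.11 in Tdg-/- MEFs, under the olfactory receptor percentile, and 7.69 in Tdg+/- MEFs, above it. The fibronectin gene Fn1 read 12.96, 12.98 and 12.92 in Tdg-/- MEFs, against 12.84, 12.89 and 12.89 in Tdg+/- MEFs, and did not pass (0.08; adjusted p = 0.509). Of these 8 genes Col2a1 passed with any single array left out, and Col3a1 was lost without Tdg-/- replicate 1 or 3 or Tdg+/- replicate 2. The other 6 were lost without Tdg+/- replicate 2 or any 1 of the Tdg-/- arrays, and Lama4 and Col5a1 without Tdg+/- replicate 3 as well (adjusted p up to 0.218). Without Tdg+/- replicate 1, 4 of the 22 rose and 8 fell, with a median of -0.12. Of the 9 fibroblast markers 5 fell (Thy1, Pdgfra, Col3a1, Col6a1 and Col1a2), of which Col3a1 and Col1a2 are also in the matrix list. The other 4 did not pass by their probe set of highest mean level: Pdgfrb was at 1.12 (adjusted p = 0.0726), Col1a1 at 0.15, Vim at 0.09 and S100a4 at -0.40. Pdgfrb had 2 probe sets, and its dimmer one passed as higher in Tdg-/- MEFs. Without Tdg+/- replicate 1 the brighter Pdgfrb probe set passed as higher too (0.86, adjusted p = 0.000914), and S100a4 passed as lower (-0.48, adjusted p = 0.00444). The part of these markers in the results above was not tested.

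**Figure D5:**
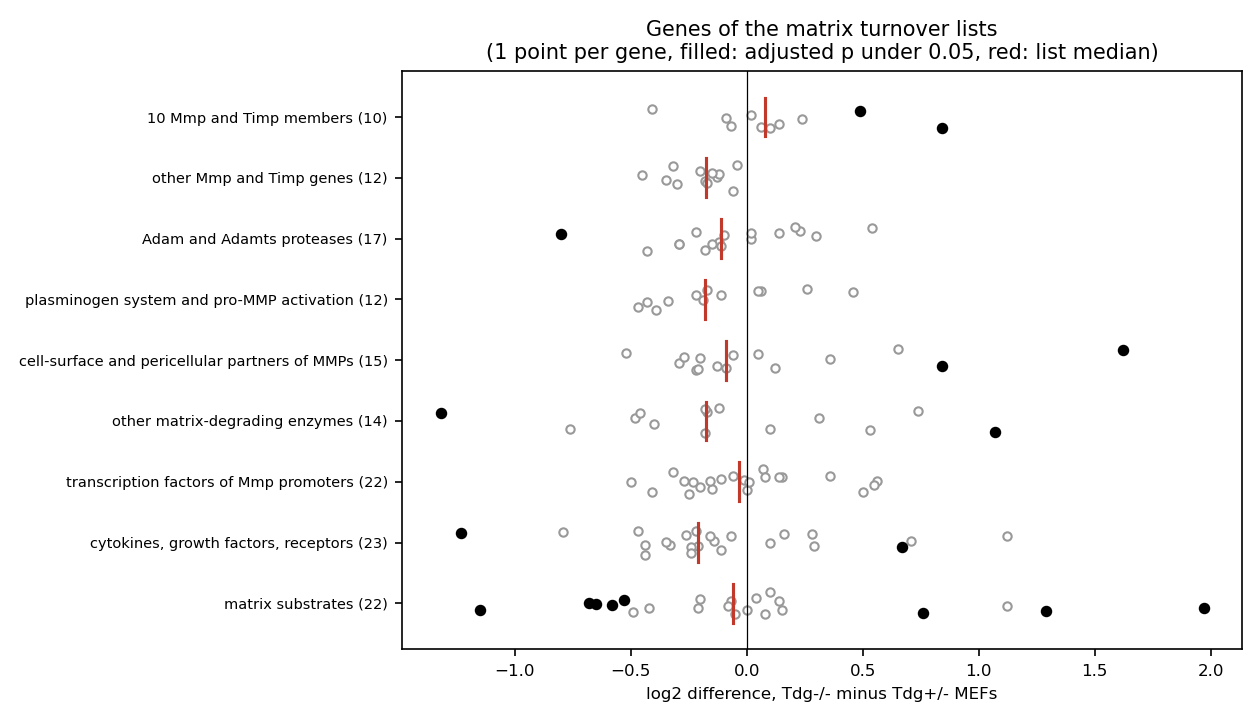
Log2 difference between Tdg-/- and Tdg+/- MEFs (x axis) for each gene of the lists named on the y axis, with the number of measured genes in brackets; filled points passed an adjusted p of 0.05 and red bars are list medians. The medians lie between -0.21 and 0.08; Mmp2 and Mmp3 are the filled points of the top line, and Col2a1 at 1.97 is the farthest to the right.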

How the data were processed

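The authors deposited log2 expression values per Affymetrix probe set, with array medians close together; total RNA input was 13 µg per array, per the labels' protocols. MAS5, RMA, affy and limma appear in the submitters' processing notes without a role, so the method behind the deposited values is unknown here. Symbols came from the platform annotation, updated by gene identifier to RefSeq GRCm38.p6: of 22690 probe sets 20393 had 1 symbol (20364 matched to RefSeq), 691 several and 1606 none. Apart from those of Tdg, probe sets with more than 1 symbol were left unnamed.

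The deposited values were compared with limma 3.58.1 (lmFit, eBayes) in R 4.3.3 over all probe sets, in a model of 2 genotypes with 3 arrays each. P-values were adjusted by Benjamini-Hochberg over the whole table, with a threshold of 0.05; the 95% intervals are not adjusted. The number of arrays limits the precision. The procedure was tested on simulated data.

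The members and the gene lists were chosen with earlier results of these data known. All members were named, with Tdg, marker genes, other family members and up to 4 changed genes per list by smallest adjusted p; Furin, Fosl1, Jun, Reck, Bsg, Fn1 and the other changed matrix genes were named after their values were seen. Alternatives were quantile normalization, leaving out the dimmer probe sets, other probe set rules, a replicate block, another variance prior, a 2-fold limit, a loess correction (span 0.4) of Tdg+/- replicate 1 and dropping each array.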

Additional observations from a re-analysis of the deposited data

How the results depend on the processing

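With all 6 arrays 686 probe sets passed, 3 of them members, and 15 of 137 list genes. Leaving out 1 array gave 121 to 4055 probe sets, 0 to 7 member probe sets and 3 to 54 list genes; the highest counts were without Tdg+/- replicate 1, and no member passed without any 1 of the Tdg-/- arrays. A 2-fold limit left 249 probe sets, 0 members and 7 list genes. A replicate block gave 289 probe sets, 2 members and 9 list genes. Quantile normalization gave 23 list genes and the loess correction 25. With quantile normalization 54.3% of called probe sets were higher, against 64.7% in the deposited values. Leaving out the dimmer probe sets moved the median log2 difference of all probe sets to 0.12.

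Deviations from the group means correlated at 0.302, 0.0451 and 0.272 between same-numbered arrays. Between differently numbered arrays the correlations ran from -0.359 to 0.111. These values do not settle whether the replicate numbers are pairs, and the main model did not pair them. With the block, Mmp2 had adjusted p-values of 0.0425 and 0.0499. Mmp3 (0.0965), Adamts1 (0.0535), Tgfb1 (0.0627), Tnc (0.059) and Col1a2 (0.0638) did not pass with it. Neither did Dcn (0.0572), Lama4 (0.0873), Col5a1 (0.116), Cd14 (0.0694) and Kdr (0.0958). The 2 Mmp2 differences kept their sign in all alternatives, from 0.68 to 0.87 on the log2 scale, as did Mmp3 (0.44 to 0.58) and all 4 Timp3 probe sets (-0.88 to -0.32). In 17 cases a member that passed in no setting changed sign, all with adjusted p-values of 0.255 or more. With quantile normalization these were Mmp14 1448383_at (-0.12) and the Timp2 probe sets 1433662_s_at (-0.01), 1437081_at (0.01), 1450040_at (-0.14) and 1460287_at (-0.01). With the loess correction they were Mmp14 1448383_at (-0.05) and Timp2 1450040_at (-0.07), and as gene means Mmp14 (-0.02) and Timp2 (-0.01). With 1 array left out, Mmp9 1416298_at ran from -0.23 to 0.16, Mmp9 1448291_at from -0.02 to 0.06, Mmp14 1448383_at from -0.05 to 0.09 and Timp2 1450040_at from -0.13 to 0.12. Signal over background limits Mmp3, Mmp9 and Mmp13, which lie under the 95th percentile of olfactory receptor probe sets; the Mmp3 probe set was not tested with the dimmer ones left out.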
